A study of Homo sapiens with 8 samples.

Results

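The genes described are 9 negative regulators of JAK-STAT signaling: SOCS2, SOCS3, SOCS5, SOCS6, CISH, PTPN1, PTPN2, PIAS1 and USP18. They were chosen by name and by pathway role, and are the rows of the count table whose Ensembl identifier maps to these symbols. The table has 60664 rows, of which 26065 held a count in some library and 15066 passed edgeR's expression filter. Of the 9 genes, 8 were counted and all 8 passed the filter, while SOCS5 had 0 counts in all 8 libraries.

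The libraries come from A549, a human cell line of lung adenocarcinoma origin, in 4 groups of 2 libraries. The groups were untreated cells, cells given IFN-γ (20 ng, a volume not being stated in the labels), cells given AX-0085 (0.5 μM), and cells given both. IFN-γ was applied for 24 h before AX-0085, a candidate kinase inhibitor, was added, and cells were harvested after another 24 h, so the IFN-γ group was exposed to the cytokine for both periods. The labels name no vehicle for the untreated cells. The study describes duplicate samples of cells without stating whether these were separate cultures. The p-values therefore set group differences against the spread between duplicate libraries of the 4 groups, which may be technical.

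In JAK-STAT signaling a cytokine receptor activates Janus kinases, which phosphorylate STAT proteins so that these move to the nucleus and switch on target genes. IFN-γ works through the receptor subunits IFNGR1 and IFNGR2, the kinases JAK1 and JAK2 and STAT proteins, whose dimers bind gamma-activated sites (GAS) in DNA. The pathway is held back by several kinds of protein. SOCS proteins and CISH bind activated receptors or kinases and recruit a CUL5 ubiquitin ligase, the tyrosine phosphatases PTPN1 and PTPN2 remove phosphate from kinases and STATs, PIAS1 is a SUMO ligase that binds STAT proteins, and USP18 removes the ubiquitin-like protein ISG15 and blocks the type I interferon receptor.

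The total count per library was between 20672828 and 29978251, and 3 counts corresponded to between 0.0959 and 0.158 CPM (counts scaled to the library total and by edgeR's TMM factors), a limit that covers counting error only. Duplicates of a group differed beyond counting noise, the chi-square per degree of freedom over genes being 8.55 to 27.7. For a single value in 2 libraries against 2, the smallest p of an exact permutation test (two-sided) is 0.333, so genes were tested in the edgeR quasi-likelihood model over all genes. A gene is called below where its Benjamini-Hochberg-adjusted p was under 0.05 and its change was over 2-fold. For groups said not to overlap, the share of all genes that separated in the same way was not counted. The epithelial markers KRT8, KRT18, KRT19, EPCAM and CDH1 were all counted. Their sum was 6420 to 6880 CPM in untreated cells and 3220 to 3400 with AX-0085. Under IFN-γ it was 2570 to 2880, and under the combination 3610 to 3660. This sum is mostly KRT8 and KRT18, and the other markers did not all follow it. CDH1 had 36.2 and 35.8 CPM untreated, 52.7 and 50.6 under the compound alone, and 81.8 and 80.7 under the combination. EPCAM went from 3.4 and 3.3 CPM untreated to 8.3 and 8.6 under the compound alone. KRT19 was also above its untreated libraries there. Under IFN-γ each marker lay below its untreated libraries, and under the combination each but CDH1 did. The 5 leukocyte markers summed to at most 0.159 CPM in any library, the 3 endothelial markers to at most 0.529, the 3 alveolar type 2 markers to at most 0.494 and the 4 fibroblast markers to between 2.93 and 10.9. Genes of the NRF2 programme, which is active in A549, summed to between 13200 and 21000 CPM. In RNA from whole cultures, fewer cells of a kind and less RNA per cell cannot be told apart.

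The start site of CISH is shown because its 300-base window (250 bases before to 50 after the start) held the GAS letters TTCNNNGAA, which read the same on both strands, more than once. The 250 bases before the start are printed 5′ to 3′, with GAS matches in capitals, from RefSeq (GRCh38.p14, minus strand, chr3:50611775-50612024).
CISH: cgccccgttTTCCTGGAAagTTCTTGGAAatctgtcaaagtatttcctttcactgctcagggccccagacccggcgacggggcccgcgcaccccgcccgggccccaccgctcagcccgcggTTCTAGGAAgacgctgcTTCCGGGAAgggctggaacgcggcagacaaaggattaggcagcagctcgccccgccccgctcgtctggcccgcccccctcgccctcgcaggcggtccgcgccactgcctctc

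The CISH window held 4 matches, which begin 241, 230, 129 and 112 bases before the start. The printed bases also lie inside the span of MAPKAPK3, a gene on the other strand (chr3:50611520-50649291). At least 1 match was found in 7.11% of the 20033 windows at GENCODE starts of protein-coding genes, and 1 window, that of CISH, held 4 or more. Among the 35116 windows of the RefSeq table, 7.66% held a match and 7 windows held 4 or more. The table matched 6 of the 9 members with 8 windows, SOCS2, SOCS5 and USP18 being unmatched. GAS matches are described here for CISH alone. The letters GAAANNGAA, the core of the interferon-stimulated response element, were searched on both strands and found in 0 of the 8 member windows, against 8.11% of all windows in the table. A match of letters is a description of the sequence and was not measured as a binding site.

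IFN-γ treatment was compared with untreated cells to see which of the regulators respond to the cytokine. SOCS3 rose 8-fold and was the 1 member called. SOCS6 and SOCS2 lay 1.9 and 1.6 times higher, CISH and PIAS1 lay 1.65 and 1.43 times lower, PTPN2 was 1.15 times higher, and PTPN1 and USP18 did not pass the test. In this comparison 27.5% of all genes tested were called (10.3% higher and 17.2% lower) and 68.1% had an adjusted p under 0.05, so that a small change with a low p was common. The median of the log2 fold changes was 0.06 for the 8 members and -0.06 for all genes, with 4 higher and 2 lower by the adjusted p alone, where 32.1% and 36.0% of all genes were.

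SOCS3 (ENSG00000184557; GRCh38, GENCODE 44, minus strand, chr17:78356778-78360077), which binds JAKs and the gp130 receptor subunit, had 1150 and 1081 counts in untreated cells against 6434 and 7931 under IFN-γ. In scaled units these are 38.1 and 44.0 CPM against 339.8 and 318.8 CPM. Both IFN-γ libraries lay far above every other library of the study. The log2 fold change was 3.01 (standard error, SE, 0.09, edgeR-adjusted p = 8.14e-12), a ratio of 8.04.

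SOCS6 (ENSG00000170677; plus strand, chr18:70289045-70330199), a family member linked to receptor tyrosine kinases, had 76.8 and 70.8 CPM in untreated cells against 130.7 and 149.5 CPM under IFN-γ. The groups did not overlap, and the log2 fold change of 0.92 (SE 0.08, edgeR-adjusted p = 1.97e-07) fell short of 2-fold with an interval of 0.76 to 1.09. Without untreated replicate 1, and likewise without IFN-γ replicate 1, it was 1.03 and passed both thresholds, which made 2 members called. SOCS2 (ENSG00000120833; plus strand, chr12:93569814-93583487), known as a brake on growth hormone signaling, had 13.7 and 15.1 CPM in untreated cells against 22.6 and 23.5 CPM under IFN-γ. Its log2 fold change was 0.68 (SE 0.09, edgeR-adjusted p = 1.34e-05), again without overlap between the groups.

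CISH (ENSG00000114737; minus strand, chr3:50606489-50611774), a SOCS family gene known as a STAT5 target, was the lowest of the counted members, with 67 and 53 counts in untreated cells against 24 and 34 under IFN-γ. The scaled levels were 2.22 and 2.16 CPM against 1.27 and 1.37 CPM. Both IFN-γ libraries were below all others, with a log2 fold change of -0.73 (SE 0.21, edgeR-adjusted p = 0.00768). PIAS1 (ENSG00000033800; plus strand, chr15:68054309-68198603) had 30.3 and 31.7 CPM in untreated cells against 22.0 and 21.4 CPM under IFN-γ, a log2 fold change of -0.51 (SE 0.08, edgeR-adjusted p = 7.31e-05).

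The phosphatases moved little. PTPN2 (ENSG00000175354; minus strand, chr18:12785478-12929643) had 37.5 and 37.4 CPM in untreated cells against 45.9 and 40.7 CPM under IFN-γ, a log2 fold change of 0.21 (edgeR-adjusted p = 0.0384). PTPN1 (ENSG00000196396; plus strand, chr20:50510321-50585241) had 81.3 and 83.8 CPM against 78.5 and 77.2 CPM, and its log2 difference of -0.08 had an interval of -0.21 to 0.05. USP18 (ENSG00000184979; plus strand, chr22:18150118-18177397), a gene known for its induction by interferons, had 10.5 and 11.7 CPM in untreated cells against 10.5 and 10.4 CPM under IFN-γ. Its log2 difference was -0.09, with an interval of -0.30 to 0.14 that does not reach a 2-fold change in either direction.

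**Figure D1:**
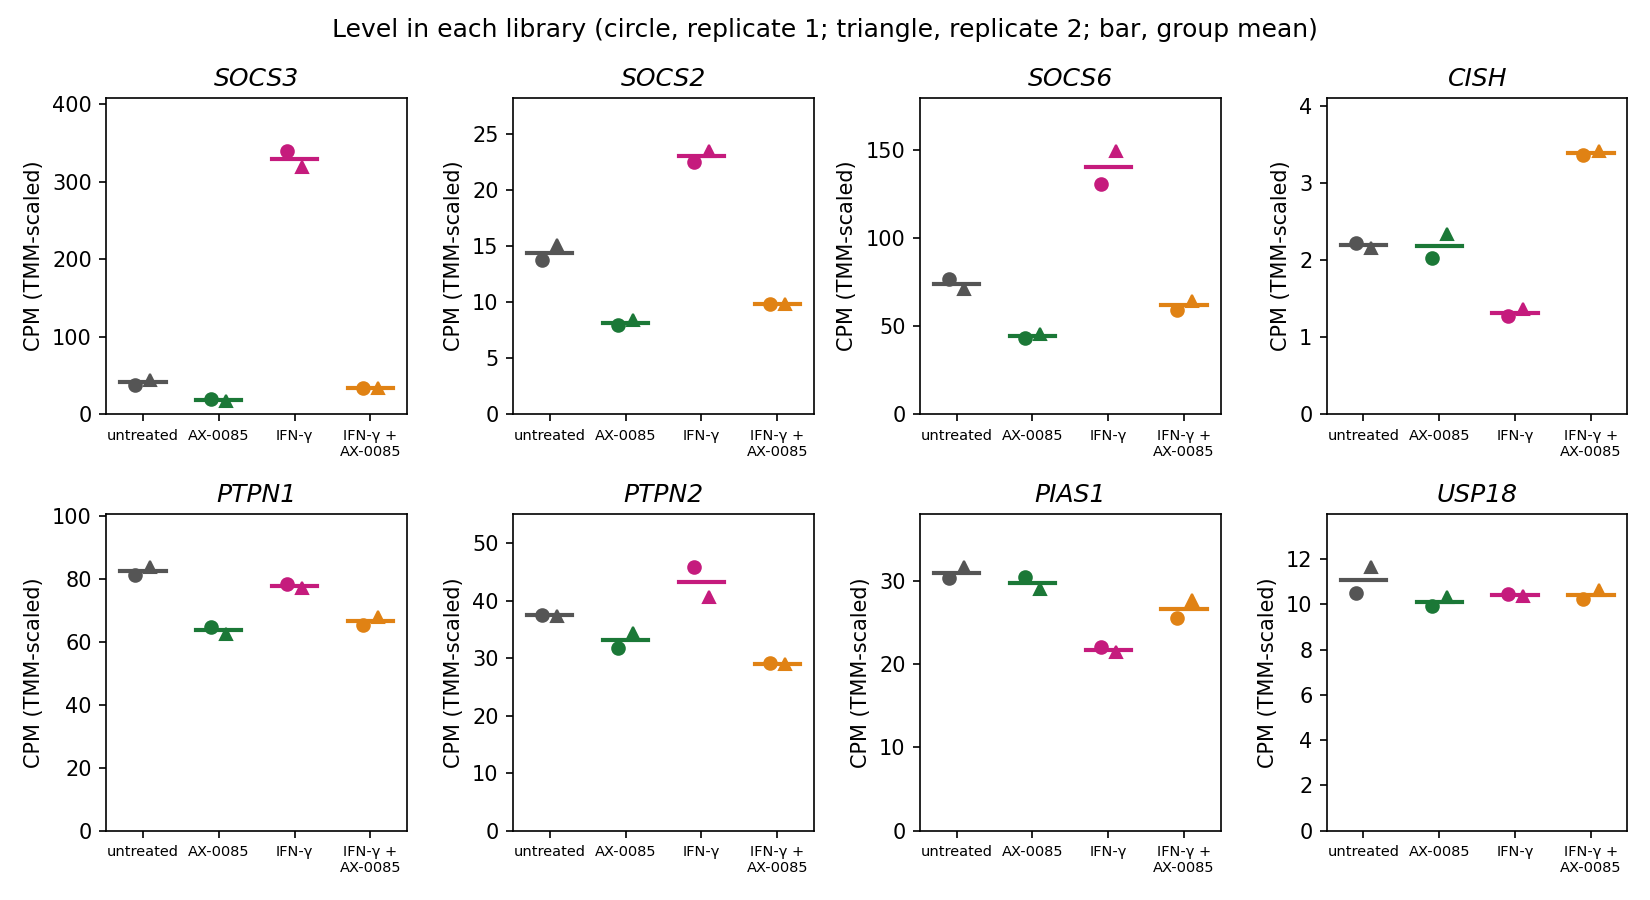
TMM-scaled CPM of the 8 counted members in each library, on a linear axis from 0 for each gene, with 1 panel per gene, circles for replicate 1, triangles for replicate 2 and bars for group means. SOCS3 stands at 318.8 to 339.8 CPM with IFN-γ and at or below 44.0 CPM in all other libraries, CISH is lowest with IFN-γ and highest with both treatments, and USP18 lies between 9.92 and 11.7 CPM throughout.

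When AX-0085 was given to cells already treated with IFN-γ, SOCS3, SOCS2 and SOCS6 fell and CISH rose, each past both thresholds. Thus 4 of the 8 members were called, 3 lower and 1 higher, where 24.8% of all genes tested were called (8.28% lower and 16.5% higher). By the adjusted p alone 5 of the 8 were lower and 2 higher, where 32.8% and 33.7% of all genes were (66.5% in all). The median log2 fold change of the members was -0.40, against 0.03 over all genes. This comparison and the previous one share the IFN-γ libraries, so their values stand side by side below and are not independent.

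SOCS3 had 33.9 CPM in each of the 2 libraries with both treatments, from 1059 and 755 counts, against 339.8 and 318.8 CPM with IFN-γ alone. Its log2 fold change was -3.28 (SE 0.09, edgeR-adjusted p = 6.14e-12), a level 9.71 times lower. SOCS2 had 9.88 and 9.80 CPM with both, a log2 fold change of -1.23 (SE 0.09, edgeR-adjusted p = 8.51e-08). SOCS6 had 59.3 and 64.2 CPM with both, a log2 fold change of -1.18 (SE 0.08, edgeR-adjusted p = 2.50e-08). For these 3 genes the libraries with both treatments lay below the untreated ones as well as below the IFN-γ ones. The same held for PTPN1 and PTPN2.

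CISH went the other way. It had 105 and 76 counts with both treatments against 24 and 34 with IFN-γ, or 3.36 and 3.42 CPM against 1.27 and 1.37 CPM. The log2 fold change was 1.35 (SE 0.20, edgeR-adjusted p = 4.41e-05), with an interval of 0.93 to 1.78 that includes 2-fold. Tested against a 2-fold change with edgeR's glmTreat, the adjusted p was 0.0930.

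The phosphatases and PIAS1 lay less than 2-fold apart between these groups. PTPN2 had 29.1 and 29.0 CPM with both (log2 difference -0.57, edgeR-adjusted p = 4.15e-05), its lowest libraries in the study. PTPN1 had 65.4 and 67.8 CPM (log2 difference -0.23, edgeR-adjusted p = 0.00546), and PIAS1 had 25.5 and 27.7 CPM (log2 difference 0.29, edgeR-adjusted p = 0.00647). USP18 had 10.2 and 10.6 CPM, and its log2 difference of -0.001 had an interval of -0.22 to 0.22.

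**Figure D2:**
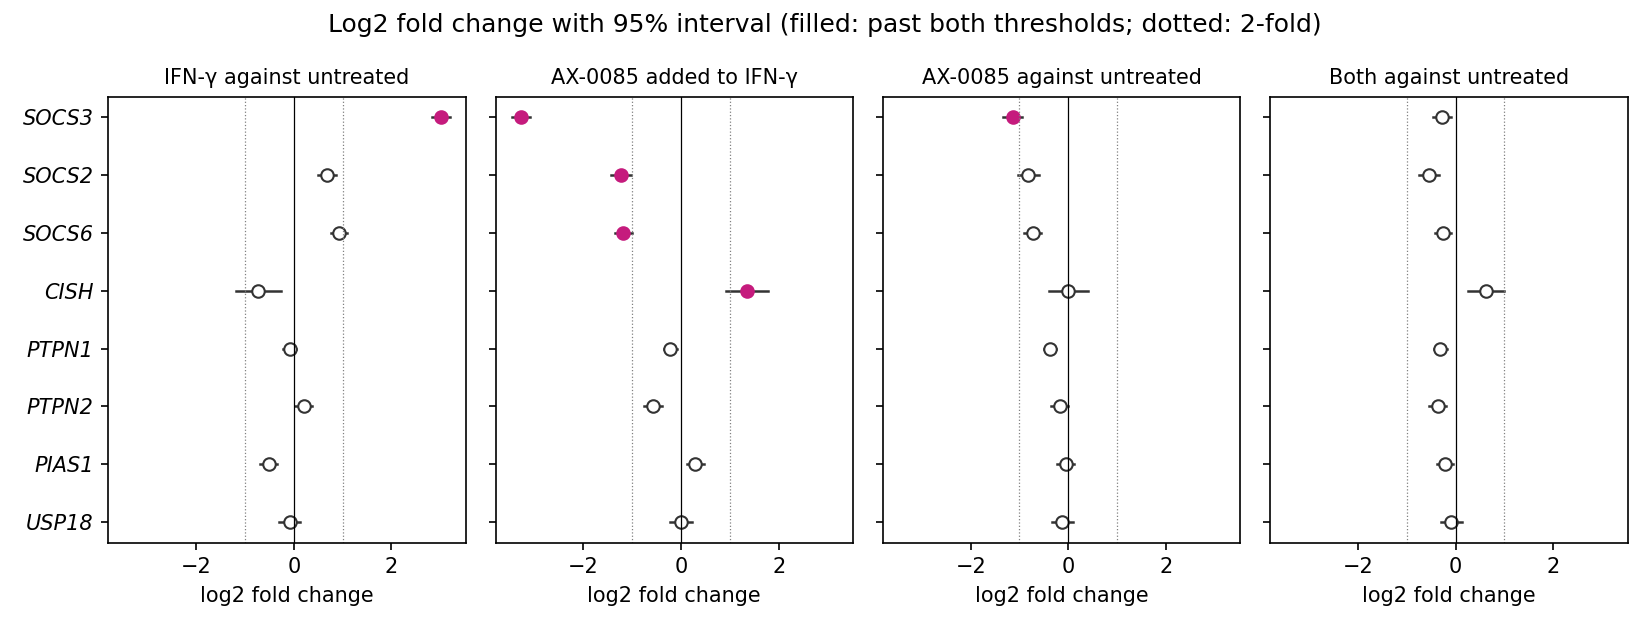
Log2 fold change of the 8 members with 95% intervals in 4 comparisons, filled where the adjusted p was under 0.05 and the change over 2-fold (dotted lines). SOCS3 had log2 fold changes of 3.01 (IFN-γ) and -3.28 (AX-0085 added), and CISH was the member higher than with IFN-γ alone past both thresholds, at 1.35.

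AX-0085 alone was compared with untreated cells to show the compound's effect without added cytokine. SOCS3 had 508 and 449 counts, or 20.2 and 16.9 CPM, below both untreated libraries, and fell by 1.14 on the log2 scale (SE 0.09, edgeR-adjusted p = 4.17e-07). It was the 1 member called, where 12.0% of all genes tested were called, 5.62% lower and 6.41% higher. Its interval of -1.34 to -0.94 includes 2-fold, and the call was lost in the glmTreat test against a 2-fold change (adjusted p = 0.336). SOCS2 had 7.93 and 8.39 CPM, a log2 difference of -0.82 (edgeR-adjusted p = 1.25e-05), and SOCS6 had 43.2 and 45.8 CPM, a log2 difference of -0.73 (edgeR-adjusted p = 6.13e-06).

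For SOCS3, SOCS2, SOCS6, PTPN1, PTPN2 and USP18 both AX-0085 libraries lay below both untreated libraries. The share of all genes that did so was not counted. PTPN1 had 64.6 and 62.6 CPM, a log2 difference of -0.38 (edgeR-adjusted p = 0.000181). For PTPN2, PIAS1, USP18 and CISH the test was not passed. Their log2 differences were -0.18, -0.06, -0.13 and -0.003, and the interval for CISH was -0.40 to 0.40. By the adjusted p alone 4 members were lower and none was higher, where 26.6% and 26.7% of all genes were (53.3% in all), and the median over members was -0.28 against 0.01 over all genes.

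Cells with both treatments were also compared with each of the other references. Against AX-0085 alone 0 of 8 members were called by edgeR and 0 by DESeq2, where edgeR called 3.52% of all genes tested (1.79% higher, 1.73% lower), and 5 members had an unadjusted p under 0.05. By the adjusted p alone 3 members were higher, where 34.7% of all genes passed in either direction (17.3% higher, 17.4% lower). SOCS3 was higher by a log2 difference of 0.87 (SE 0.09, edgeR-adjusted p = 2.09e-05), SOCS6 by 0.47 and CISH by 0.63 (edgeR-adjusted p = 0.000679 and 0.0128). Without AX-0085 replicate 1, SOCS3 was at 1.01 and was called. SOCS2 was at 0.27 with an interval of 0.05 to 0.49 and an edgeR-adjusted p of 0.0543. PTPN2 and PIAS1 were at -0.19 and -0.17 (edgeR-adjusted p = 0.0947 and 0.117). PTPN1 and USP18 were at 0.07 and 0.04 (edgeR-adjusted p = 0.441 and 0.794).

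Against untreated cells 0 of 8 members were called in cells with both treatments by edgeR or by DESeq2, where edgeR called 14.7% of all genes (7.51% higher, 7.23% lower), and 7 had an unadjusted p under 0.05. CISH was 1.54 times higher, with a log2 difference of 0.63 (SE 0.17, edgeR-adjusted p = 0.00682). SOCS2, PTPN2, PTPN1, SOCS3, SOCS6 and PIAS1 had log2 differences of -0.55, -0.37, -0.31, -0.27, -0.26 and -0.22, each with an adjusted p under 0.05. Thus 6 members were lower and 1 was higher by the adjusted p alone, where 28.8% and 28.1% of all genes were (56.9% in all). USP18 was at -0.09 (edgeR-adjusted p = 0.485).

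The effect of AX-0085 in the presence of IFN-γ was tested against its effect in the absence of IFN-γ by the interaction term. Here 2 of 8 members were called, 1 in each direction, where 18.6% of all genes were (12.1% positive, 6.46% negative), and 6 passed by the adjusted p alone, where 50.3% of all genes did (26.7% positive, 23.6% negative). For SOCS3 the log2 effect of AX-0085 was -3.28 with IFN-γ and -1.14 without, a difference of -2.14 (SE 0.12, edgeR-adjusted p = 3.22e-08). For CISH it was 1.35 with IFN-γ and -0.003 without, a difference of 1.35 (SE 0.27, edgeR-adjusted p = 0.00106). The glmTreat test against a 2-fold difference left SOCS3 and not CISH (adjusted p = 0.279).

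SOCS6, SOCS2 and PTPN2 had smaller differences in the direction of SOCS3, of -0.45, -0.41 and -0.40 (edgeR-adjusted p = 0.00435, 0.0214 and 0.0124). PIAS1 had one of 0.35 (edgeR-adjusted p = 0.0199). For PTPN1 and USP18 the interaction was 0.15 and 0.13, with intervals of -0.04 to 0.34 and -0.18 to 0.44.

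Levels of different genes were ordered by CPM per kb of merged exons (GENCODE 44). Whether reads were counted over exons or over whole gene spans is not given. The order therefore holds for this length only and may differ from that of the transcript levels. In untreated cells PTPN1 was highest at 20.4 ± 0.45 (SD, n = 2), followed by SOCS3 at 15.0 ± 1.54, SOCS6 at 12.6 ± 0.74, PTPN2 at 4.30 ± 0.01, PIAS1 at 2.91 ± 0.09, USP18 at 2.7 ± 0.2, SOCS2 at 2.22 ± 0.15 and CISH at 0.43 ± 0.01. The libraries of PIAS1 and USP18 overlapped, and no other neighbours in this order did. With IFN-γ SOCS3 moved to the top at 120.4 ± 5.4 per kb, 5 times the next gene, SOCS6 at 24.0 ± 2.3, and SOCS2 at 3.56 ± 0.11 passed USP18 and PIAS1.

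With AX-0085 alone PTPN1 led at 15.7 ± 0.35 per kb, while SOCS6 at 7.62 ± 0.31 and SOCS3 at 6.79 ± 0.86 differed by less than the SD of SOCS3. With both treatments PTPN1 at 16.5 ± 0.42 again came before SOCS3 at 12.4 ± 0.01 and SOCS6 at 10.6 ± 0.59, and the libraries of USP18 and PIAS1 overlapped. CISH was last in all 4 groups, from 0.26 ± 0.01 with IFN-γ to 0.67 ± 0.01 with both. The place of PIAS1 depends on the length used, because other annotated genes cover 68.3% of its exon bases. Per kb of the exon bases outside other genes it was at 9.19 in untreated cells and came after SOCS6, and with AX-0085 alone it came after PTPN1 at 8.83.

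**Figure D3:**
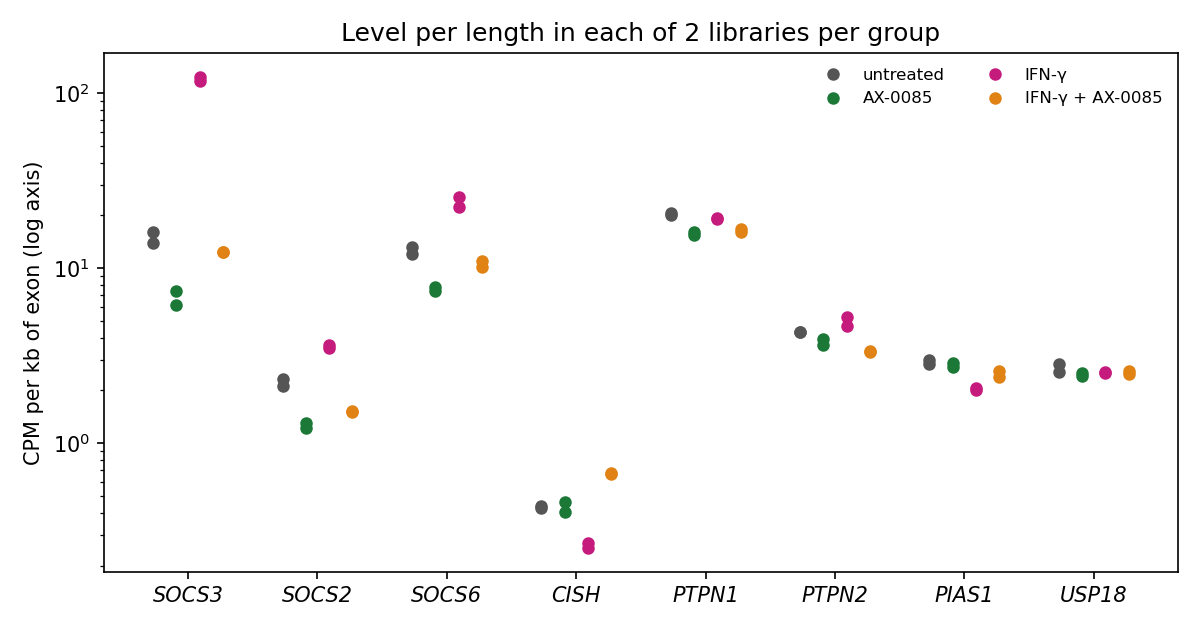
CPM per kb of merged exons (log axis) of the 8 counted members, 1 point per library and 2 per group, coloured by treatment. PTPN1, at 20.4 per kb, is highest in untreated cells, SOCS3 is highest with IFN-γ at 120.4 per kb, and CISH is lowest in each group.

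SOCS5 (ENSG00000171150; plus strand, chr2:46698952-46780245) had 0 counts in each library. All of its exon bases lie inside the span of LINC01118, a gene on the same strand, which had between 2 and 11 counts per library. Such zeros were common in this table. Of the 600 protein-coding genes whose whole span lies within another gene on the same strand, 592 (98.7%) had 0 counts in all libraries, and of the 1155 lying within genes on the other strand only, 1133 (98.1%) did. Among the 18187 protein-coding genes not nested in this way the share was 12.3%. The 0 of SOCS5 therefore says nothing of whether the gene was expressed.

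Overlaps touched some other members. SOCS2 has 20.6% of its exon bases inside another gene and 4.28% over exons of its antisense gene SOCS2-AS1. SOCS2-AS1 had 125 and 113 counts in untreated cells, 64 and 67 under AX-0085, 90 and 99 under IFN-γ and 120 and 82 under the combination. The strand setting of the counting is not given in the sources used here. Of the genes nested on the other strand only, 98.1% were at 0. Reads in the part shared by this pair may thus have been left out of both counts, or not told apart, which was not tested. CISH has 4.31% of its exon bases over exons of MAPKAPK3, which had between 970 and 1477 counts. PIAS1 has the most, with 68.3% of its exon bases inside other genes and 32.7% over their exons, and PTPN1 has 3.4% of each. The part of these overlaps in the members' values was not tested. PTPN2, SOCS3, SOCS6 and USP18 have none over another gene's exons.

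USP18 has a near-identical copy, USP41, which had 25 to 50 counts per library against 198 to 320 for USP18, and reads could be split between them. With the counts of both summed, a setting chosen after seeing the data, the log2 difference with both treatments against IFN-γ was 0.02. Reads that map equally to both genes may have been left out of both counts, and the sum does not restore these. Annotated pseudogenes of SOCS2, SOCS6 and PTPN2 had few or no counts, and 3 of those of SOCS5 had a total of 47, 2 and 1 counts over all libraries.

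For the members called in any comparison, the genes with the most similar profile were sought by Pearson's r of log2 CPM over the 8 libraries, among genes whose log2 CPM averaged at least 2. The libraries are 4 pairs of duplicates, so r is a description of a 4-group pattern. SOCS3 was closest to BTN2A1 (r = 0.999), IL11 (r = 0.999) and DAPK3 (r = 0.998). The value of r takes no account of the size of a change. BTN2A1 had 25.74 and 26.15 CPM in untreated cells and 43.99 and 41.93 under IFN-γ, a smaller change than that of SOCS3. DAPK3 had 23.29 and 24.48 CPM, and 61.58 and 58.77 under IFN-γ. IL11, a cytokine of the IL-6 family, had 23.9 and 24.2 CPM in untreated cells, 8.72 and 8.28 under AX-0085, 477.4 and 479.7 under IFN-γ and 19.7 and 19.5 under the combination. Its order of groups was that of SOCS3.

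SOCS2 was closest to DUSP7 (r = 0.999), PNPT1 (r = 0.998) and SBNO2 (r = 0.998), and SOCS6 to AMD1 (r = 0.997), AHCTF1 (r = 0.996) and HNRNPU (r = 0.996). CISH was closest to FKBP5 (r = 0.982), POLR2A (r = 0.981) and ABHD6 (r = 0.976). ABHD6 had 14.8 and 15.0 CPM in untreated cells, 13.0 and 14.6 under AX-0085, 8.82 and 7.80 under IFN-γ and 19.3 and 20.5 under the combination.

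Transcripts of the proteins on which the members act were also measured. The counts for this list and those below stand beside the shares of all genes. Between IFN-γ and untreated cells 27.5% of all genes tested were called (10.3% higher, 17.2% lower). Between cells with both treatments and those with IFN-γ alone it was 24.8% (16.5% higher, 8.28% lower). Whether any list departs from these shares was not tested. Of the list of 16 receptors, kinases and STATs, 15 were tested, and 3 were called higher and 2 lower with IFN-γ, and 2 higher and 3 lower upon addition of AX-0085, with medians of 0.10 and -0.26. STAT3, which acts upstream of SOCS3 in cytokine signaling, was at 0.45 with IFN-γ and fell by 1.07 upon addition of AX-0085 (edgeR-adjusted p = 4.83e-06 and 1.62e-09). STAT2 rose with IFN-γ by 1.57, while STAT4 and JAK3 fell by 1.55 and 1.09, and both were higher upon addition of AX-0085, by 1.79 and 2.48.

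The receptor subunits and the kinases of the IFN-γ receptor were not called in either comparison. With IFN-γ, IFNGR1 was at 0.10 and IFNGR2 at -0.66 on the log2 scale, JAK1 at -0.08 and JAK2 at 0.58. Upon addition of AX-0085 they were at 0.39, 0.37, -0.26 and -0.66. Annotated overlap touches 55.3% of the exon bases of IFNGR2 and 47.4% of those of JAK2.

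In the list of 8 genes of ISG15 conjugation, the modification that USP18 removes, 4 were called higher with IFN-γ and the median log2 fold change was 1.02. ISG15 itself had 2.81 and 3.14 CPM in untreated cells, 93.9 and 96.8 under IFN-γ and 11.7 and 10.4 under the combination, with log2 fold changes of 5.01 and -3.10 (SE 0.13 and 0.11). The conjugating enzyme UBE2L6 rose by 3.72 with IFN-γ on the log2 scale and fell by 2.39 upon addition of AX-0085, and HERC6 rose by 1.49 and fell by 1.16. HERC5, the main ISG15 ligase, was at -0.65 with IFN-γ and fell by 1.09 upon addition of AX-0085. Upon that addition 4 of the 8 were called lower, with a median of -0.87, whereas USP18 stayed within 9.92 to 11.7 CPM in all 8 libraries.

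Of 21 other negative regulators of the pathway, 17 were tested, with 2 called lower and none higher with IFN-γ and 2 higher and 2 lower upon addition of AX-0085, and with medians of 0.18 and -0.18. PTPN6, the phosphatase SHP-1, had 27.4 and 27.6 CPM in untreated cells, 4.12 and 3.74 under IFN-γ and 29.5 and 26.0 under the combination, with log2 fold changes of -2.81 and 2.83 (SE 0.11 for each). The adaptor SH2B2 fell by 1.02 with IFN-γ and rose by 1.95 with the compound. UBASH3B, a phosphatase whose exon bases are 91.2% covered by another gene, was at 0.43 and fell by 1.76 in the same comparisons. SOCS1, which like SOCS3 inhibits JAKs and was chosen after its values were seen, had 0 counts in all libraries, with all of its exon bases inside another gene.

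Transcripts of the partners with which the members work were counted as well. Of 6 tested partners of SOCS proteins in the CUL5 ubiquitin ligase, edgeR and DESeq2 called 0 in either comparison, with 3 and 2 at an unadjusted p under 0.05 and medians of 0.05 with IFN-γ and -0.13 upon addition of AX-0085. Of 8 SUMO conjugation partners of PIAS1 both tools called 0, with 3 and 5 at an unadjusted p under 0.05 and medians of 0.03 and -0.28.

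Among 13 tested receptors that members act on, 2 were called higher and 1 lower with IFN-γ, with a median of 0.15, and 2 higher and 2 lower upon addition of AX-0085, with a median of 0.03. OSMR, a receptor of the gp130 family, rose by 1.65 with IFN-γ on the log2 scale and fell by 1.88 upon addition of AX-0085. IL4R rose by 1.37 and was then at -0.74, EGFR was at 0.96 and fell by 1.06, and IL6R was at -0.41 and rose by 1.29. Of 12 tested target genes of STAT3 and STAT5, 3 were called higher and 5 lower with IFN-γ, and 4 higher and 4 lower upon addition of AX-0085, with medians of -0.24 and 0.19. MYC rose by 2.03 on the log2 scale and then fell by 1.58, whereas the fibrinogen genes FGB, FGG and FGA fell by 3.67, 2.95 and 2.61 and rose by 2.11, 2.27 and 2.17.

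Cell cycle genes were lower in cells given AX-0085 alone, as were SOCS3, SOCS2 and SOCS6, while CISH was at -0.003. With IFN-γ the cell cycle genes were lower too, whereas SOCS3, SOCS2 and SOCS6 were higher. Of 10 in the list 9 were called lower under AX-0085 alone than in untreated cells, with a median log2 fold change of -1.42. The share of all genes called lower there was 5.62%. Under IFN-γ, where 17.2% of all genes were called lower, 4 of the list were, with a median of -0.86. Upon addition of the compound to IFN-γ edgeR called 0 of them and DESeq2 1, with 9 at an unadjusted p under 0.05 and a median of -0.50. The mitochondrial share of the counts was 4.12% and 5.73% with AX-0085 alone, 3.55% and 2.72% in untreated cells, 1.71% and 1.82% under IFN-γ, and 2.87% and 3.43% under the combination. The part of these shifts in the members' values was not tested.

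**Figure D4:**
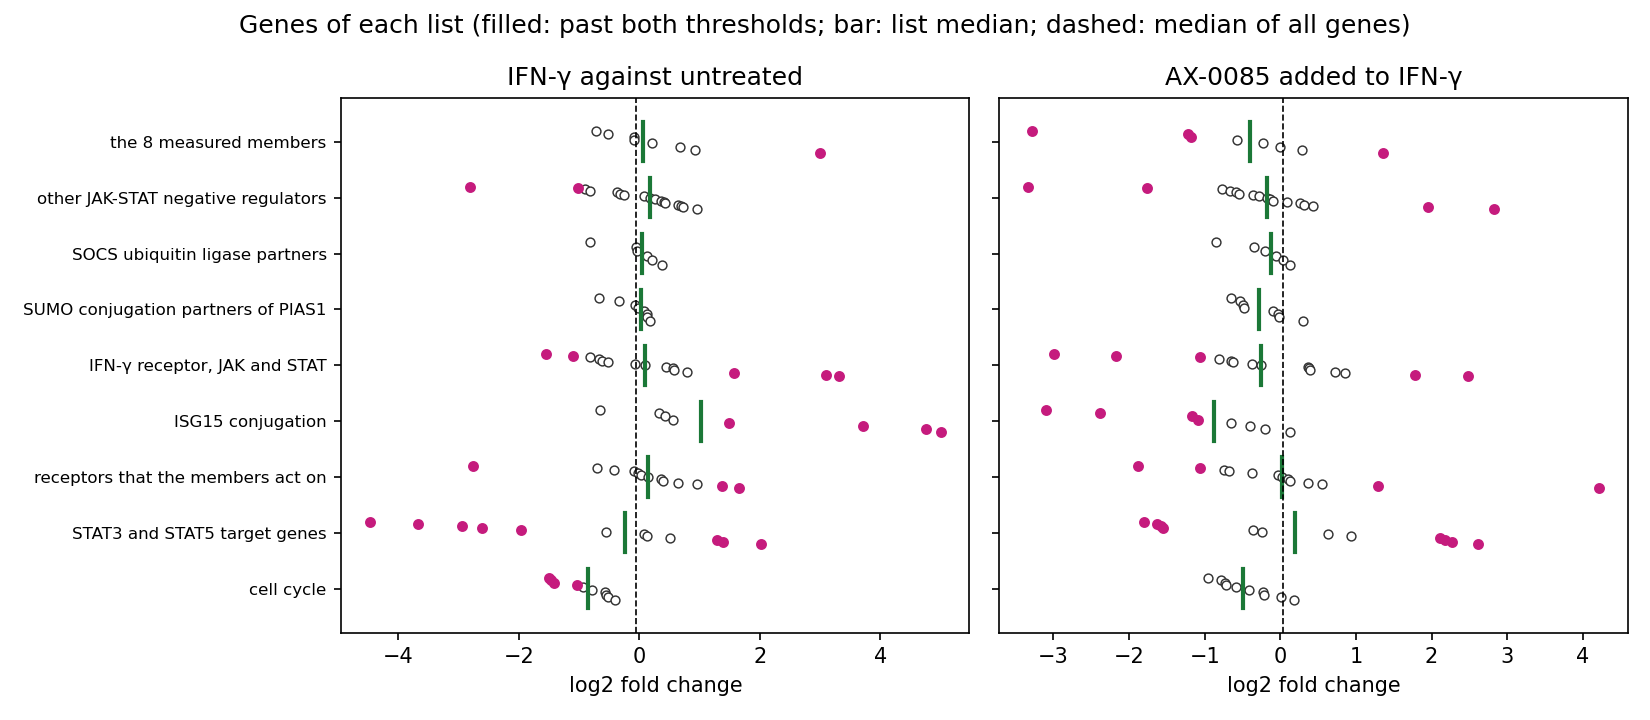
Log2 fold change of each tested gene in the members and the 8 other gene lists, with IFN-γ against untreated cells (left) and with both treatments against IFN-γ (right), filled where past both thresholds, with green bars for list medians and a dashed line for the median of all genes. ISG15 conjugation genes have medians of 1.02 and -0.87, and the 8 members of 0.06 and -0.40.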

How the data were processed

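The 8 A549 libraries, 2 per group, were stranded mRNA preparations. The authors trimmed the reads with Trim Galore 0.6.7, mapped them to GRCh38 with STAR 2.7.9a and counted them per gene with featureCounts. The deposited values are whole-number counts without normalization. The annotation release, the feature counted, the strand setting and the treatment of multiply mapped reads are not given in the sources used here. Identifiers were matched to GENCODE 44, which named 60463 of the 60664 rows, and exon lengths and overlaps come from it.

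Counts were filtered with filterByExpr, scaled with TMM factors (0.916 to 1.04) and tested with the quasi-likelihood test of edgeR 4.0.16 in R 4.3.3. A single model held the 8 libraries in their 4 groups. The p-values were adjusted by Benjamini-Hochberg over 15066 genes. Intervals are 95% intervals of the log2 fold change. CPM values of single libraries are TMM-scaled, and log2 CPM for the comparison of profiles used a prior count of 2. The procedure was tested on simulated counts. Alternatives were DESeq2 1.42.0, RLE size factors, library size alone, other filters, a fit of the compared groups, the adjusted p alone, glmTreat, a replicate block and leaving out each library.

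All 8 counted members are named in each comparison. From each gene list at most 4 genes are named, by the largest change among those called whose log2 CPM averaged at least 0, together with IFNGR1, IFNGR2, JAK1, JAK2 and STAT3. Some of the genes and sequences that meet these rules are not reported here. For each called member the 3 genes most like it are named. The members and lists were chosen with earlier results of these data known.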

Additional observations from a re-analysis of the deposited data

Results flagged for a closer look

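The effect of AX-0085 differed with IFN-γ from that without it for SOCS3 and CISH, by the interaction term. For SOCS3 the difference of the log2 effects was -2.14 (standard error 0.12, edgeR-adjusted p = 3.22e-08). For CISH it was 1.35 (standard error 0.27, edgeR-adjusted p = 0.00106), from 24 to 105 counts per library. No reason for either difference was tested.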

How the results depend on the processing

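The count of members called depended on the criterion. With the adjusted p alone it was 6 with IFN-γ against untreated, 7 with both against IFN-γ, 4 with AX-0085 against untreated, 3 with both against AX-0085, 7 with both against untreated and 6 for the interaction. The shares of all genes tested were 68.1%, 66.5%, 53.3%, 34.7%, 56.9% and 50.3% in the same order. Under glmTreat it was 3 in place of 4 with both against IFN-γ, CISH having an adjusted p of 0.0930, 0 with AX-0085 against untreated and 1 for the interaction. Leaving out 1 library gave 1 to 2 with IFN-γ, 4 to 4 with both against IFN-γ, 1 to 1 with AX-0085 alone, 0 to 1 with both against AX-0085, 0 to 0 with both against untreated and 2 to 2 for the interaction. The shares of all genes called under glmTreat, with 1 library left out or with a block are not given here.

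With the replicate number as a block the counts were 1, 4, 1, 0, 0 and 2 in the same order, as without it. Same-numbered libraries had correlated deviations of -0.109 to 0.0873 over 6 pairs of groups, so the numbers were not taken to pair the libraries. A block with the untreated numbers swapped, chosen after seeing the data, gave these counts too.

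Values near 0 turned sign and passed no test. The log2 difference of CISH with AX-0085 alone was 0.001 with library size alone, 0.015 with at least 10 counts in every library, and between -0.107 and 0.092 with 1 library left out. That of USP18 with both treatments against IFN-γ was 0.121 with library size alone, 0.054 with at least 10 counts, 0.02 with the compared groups alone, 0.003 with the replicate block, 0.019 with USP41 added, and between -0.027 and 0.023 with 1 library left out. Library size alone moved the median of all genes by -0.12 in the IFN-γ comparison and by 0.12 in that of both with IFN-γ. Of the members' values under the alternatives, 838 kept direction and side of the threshold, 12 turned sign, 3 passed and 3 ceased to pass the threshold. CISH had 24 to 105 counts per library, so its differences carry a counting error.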
